A study of Mus musculus with 6 samples.

Results

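A set of 9 genes of nuclear receptors that govern hepatic metabolism, *Ppara*, *Pparg*, *Nr1h3*, *Nr1h4*, *Hnf4a*, *Rxra*, *Esr1*, *Nr3c1* and *Nr5a2*, was examined in the liver of *Sirt7* KO mice. The 9 genes, named by a fixed list of ligand-activated and orphan receptors, are part of 54115 genes to which reads were summed. The list was chosen with earlier results of these data known. The RNA-seq data came from the livers of 3 WT and 3 *Sirt7* KO mice, each liver being 1 mouse and 1 library. All 6 mice were males 24 months old that had gone without food for 16 h. The KO mice carry a germline disruption of the gene of SIRT7, a nuclear deacylase, in a line that had been backcrossed to C57BL/6J, and both genotypes were bred from heterozygous parents.

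Nuclear receptors are transcription factors that bind DNA through a zinc finger domain and, in most cases, change their partner proteins when a lipid-soluble ligand enters the ligand-binding pocket. In the liver they couple lipids, bile acids and steroid hormones to gene expression: PPAR-alpha (*Ppara*) drives fatty acid oxidation and ketogenesis in fasting, LXR-alpha (*Nr1h3*) senses oxysterols, and FXR (*Nr1h4*) senses bile acids. These receptors bind DNA as heterodimers with RXR, whose main hepatic form is RXR-alpha (*Rxra*), whereas HNF4-alpha (*Hnf4a*) binds as a homodimer and LRH-1 (*Nr5a2*) as a monomer, and the glucocorticoid receptor (*Nr3c1*) and the estrogen receptor alpha (*Esr1*) are steroid receptors.

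Each library had 9994860 to 13424776 reads assigned to transcripts, of which 5827 to 11499 fell on the 9 receptors, and 1.65% to 3.17% fell on mitochondrial genes. The *Sirt7* gene had 55.2, 45.5 and 47.3 CPM (counts scaled to library size by the TMM method) in the WT livers and 28.6, 41.7 and 40.8 CPM in the KO livers. *Sirt7* reads thus remained in all KO livers, below those of every WT liver, and since the sources used here do not give the exons that the KO allele lacks, the gene sum does not check the genotype. Over the 12524 genes that passed the filter on low counts, edgeR's quasi-likelihood test called 1 gene (0.00798%) at an adjusted p under 0.05 and a fold change over 1.5. It was *Apol9b*, an apolipoprotein L gene, with 52.6, 54.8 and 53.5 CPM in WT and 146, 138 and 142 CPM in KO livers (log2 fold change 1.40, standard error 0.13, adjusted p = 0.020).

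The 5 markers of hepatocytes summed to between 40514 and 44433 CPM in WT livers and between 41340 and 50887 CPM in KO livers. No tested marker of hepatocytes, Kupffer cells, sinusoidal endothelial cells, stellate cells, bile duct cells or lymphocytes had an unadjusted p under 0.05 between the genotypes. Of 5 markers each, 4 of bile duct cells and 3 of lymphocytes were tested, and the markers of adipocytes were too low to be tested. For the hepatocyte marker *Apoa1* (11564 to 12569 CPM in WT, 14608 to 16516 CPM in KO) every KO liver was above every WT liver. So it was for the bile duct marker *Krt19*, from 5 to 16 reads per liver. Both are named after their values were seen, and KO lay above WT without overlap for 8.74% of all tested genes. The marker sums of the other cell types overlapped between the genotypes, with 38.5 to 128 CPM in WT and 39.8 to 111 CPM in KO livers for Kupffer cells and 175 to 223 CPM and 134 to 221 CPM for stellate cells. In bulk liver, fewer cells of a type and less RNA per cell cannot be told apart, and the part of cell composition in the values below was not tested.

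All 9 receptors passed the filter. None of them was called at the adjusted threshold. At an unadjusted p under 0.05, 3 of the 9 (*Nr5a2*, *Rxra* and *Ppara*) differed, all with lower values in KO livers, against 11.3% of all tested genes in either direction with 4.78% lower and 6.54% higher in KO livers. In 2 of the 9, *Rxra* and *Nr5a2*, every KO liver was below every WT liver. Genotypes without overlap were found for 16.8% of all tested genes, with KO below WT for 8.09% and above it for 8.74%. The log2 fold change was below 0 for 7 of the 9 receptors, against 50.7% of all tested genes, and its median was -0.35 for the receptors and -0.0061 for all tested genes.

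**Figure D1:**
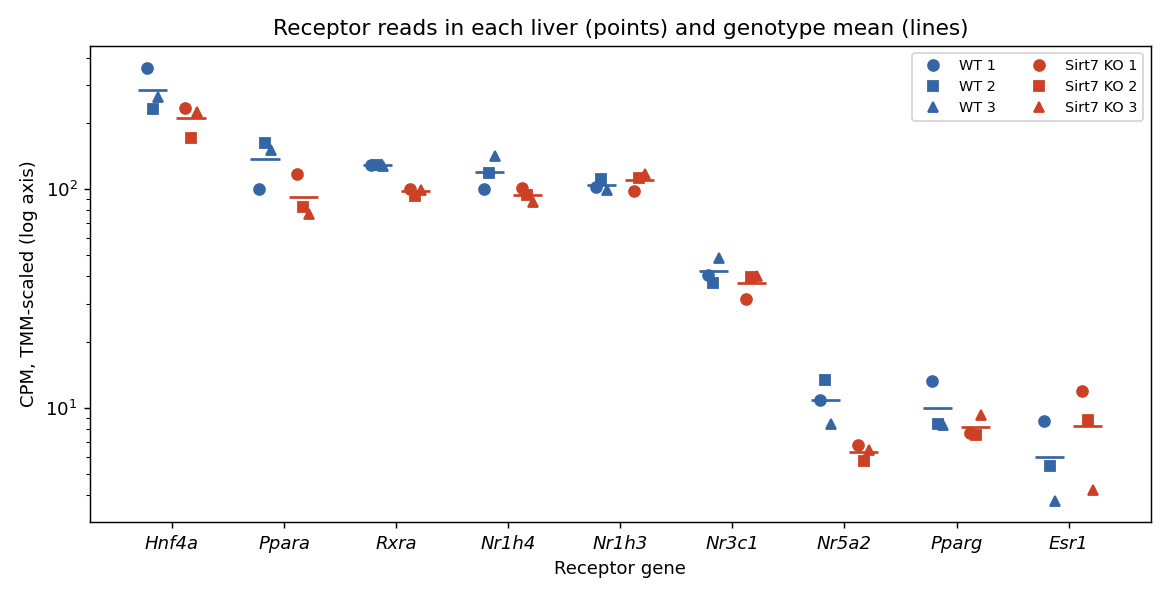
Reads on each receptor gene (TMM-scaled CPM, log axis) in each of the 6 livers, with WT in blue and *Sirt7* KO in red. Circles, squares and triangles mark mice 1, 2 and 3, and lines mark genotype means. *Rxra* and *Nr5a2* are the receptors whose genotypes do not overlap.

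Levels between genes were compared per length, as TPM, the share of transcripts after division by their length, summed over the protein-coding transcripts of each gene. Over the 6 livers, 4 receptors had similar means, with 56.9 TPM for *Nr1h3*, 50.8 TPM for *Nr1h4*, 50.4 TPM for *Hnf4a* and 45.9 TPM for *Ppara*. The order depended on genotype, with means of 56.0, 57.7, 59.0 and 54.99 TPM, respectively, in WT livers and of 57.7, 44.0, 41.7 and 36.7 TPM in KO livers. *Nr1h3* was above *Nr1h4* in 5 of 6 livers, and *Nr1h4* above *Hnf4a* and *Hnf4a* above *Ppara* in 4 of 6 livers each, so these neighbours were not separated beyond their spread. *Rxra* had 21.3 TPM, *Nr3c1* 10.9 TPM and *Pparg* 4.28 TPM, each above the next in all 6 livers, and *Nr5a2* (1.77 TPM) was above *Esr1* (0.925 TPM) in 4 of 6 livers. Among all 49 nuclear receptor genes of the mouse that were listed, the constitutive androstane receptor *Nr1i3*, which acts on drug metabolism, had the highest mean over the 6 livers with 106 TPM. It was highest in WT livers with 136 TPM, whereas *Nr0b2* was highest in KO livers with 84.9 TPM against 75.4 TPM for *Nr1i3*.

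*Rxra*, the heterodimer partner of the PPARs, LXR and FXR, had 129, 129 and 127 CPM in the 3 WT livers and 100.2, 93.5 and 99.3 CPM in the 3 KO livers. The KO values were all below the WT values, the highest KO liver at 0.787 of the lowest WT liver. The spread within a genotype was 0.801% (WT) and 3.75% (KO) of the mean. With 1419 to 1721 reads per WT liver, counting error alone is expected to give a spread above 0.801%. The WT figure thus does not measure how much WT mice vary. The genotype means were 128 ± 1.03 CPM and 97.7 ± 3.66 CPM (SD, n = 3 each). On the log2 scale KO livers differed from WT by -0.40 with a standard error of 0.13 (edgeR's quasi-likelihood test, unadjusted p = 0.0119, adjusted p = 0.28).

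The promoter of *Rxra* is shown because its gene and *Nr5a2* are the pair whose genotypes did not overlap. The sequences are the 250 bases upstream of the RefSeq start sites of the transcripts to which most of their reads were assigned, in the GRCm38.p6 build. Capitals mark exact matches, on either strand, of the searched letters AGGTCA for the nuclear receptor half-site, CAAAGTCCA for HNF4, CACGTG for the E-box, AGAACA for the glucocorticoid half-site, CCAAT for the CCAAT box, GGGCGG for the GC box and TATAAA for the TATA box. A match is a run of letters and not a known site.
*Rxra*: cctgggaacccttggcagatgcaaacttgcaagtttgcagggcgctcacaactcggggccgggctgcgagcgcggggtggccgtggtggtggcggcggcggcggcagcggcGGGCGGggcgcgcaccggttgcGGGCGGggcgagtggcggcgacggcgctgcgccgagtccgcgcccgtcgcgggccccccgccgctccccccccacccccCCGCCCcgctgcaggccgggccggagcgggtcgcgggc
*Nr5a2*: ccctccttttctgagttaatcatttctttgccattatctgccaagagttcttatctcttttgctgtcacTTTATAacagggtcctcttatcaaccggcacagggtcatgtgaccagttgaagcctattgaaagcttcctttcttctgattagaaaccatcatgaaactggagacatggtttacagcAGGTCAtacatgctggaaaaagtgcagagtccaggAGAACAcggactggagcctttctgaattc
The *Rxra* sequence lies on the + strand at chr2:27676951-27677200 and the *Nr5a2* sequence on the - strand at chr1:136960449-136960698, both without an annotated exon. The *Rxra* sequence held 3 GC boxes, at -139, -117 and -38 from the start site, with a GC content of 81.2%, against an upper quartile of 61.2% over all sequences, and GC boxes stand in 32.7% of the 32851 promoter sequences. The *Nr5a2* sequence had a GC content of 43.2%, below the lower quartile of 45.2%, and held a nuclear receptor half-site at -64, a glucocorticoid half-site at -29 and a TATA box at -181. These letters stand in 14.0%, 16.1% and 12.4% of all promoter sequences, respectively.

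*Nr5a2*, the gene of LRH-1, which acts on bile acid synthesis and reverse cholesterol transport, had 10.8, 13.4 and 8.43 CPM in WT livers and 6.78, 5.72 and 6.45 CPM in KO livers. These values came from 54 to 148 reads per liver. The genotypes did not overlap, since the highest KO liver was below the lowest WT liver. The means were 10.9 ± 2.50 CPM and 6.32 ± 0.540 CPM (SD, n = 3 each), with a log2 fold change of -0.78 (standard error 0.24, unadjusted p = 0.00944; edgeR, adjusted p = 0.26).

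*Ppara* had 100.1, 163 and 150.4 CPM in WT livers and 117, 83.0 and 77.4 CPM in KO livers. The first WT liver lay below the first KO liver, so the genotypes overlapped. The means were 138 ± 33.2 CPM and 92.6 ± 21.7 CPM (SD, n = 3 each), a log2 difference of -0.57 with a standard error of 0.23 (edgeR, unadjusted p = 0.0328, adjusted p = 0.38). The unadjusted p was above 0.05 when WT mouse 2, WT mouse 3, KO mouse 2 or KO mouse 3 was left out (log2 fold change -0.50 to -0.44), and with the average length of the transcripts as an offset the log2 fold change was -0.90. That average is weighted by TPM over all *Ppara* transcripts, very short noncoding ones included, and their part in the value of -0.90 was not tested.

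*Hnf4a*, the gene of the receptor that maintains hepatocyte gene expression, had 360, 232 and 263 CPM in WT and 235, 172 and 225 CPM in KO livers. WT mouse 1 had the highest value, KO mouse 2 the lowest, and the first KO liver lay just above the second WT liver. The log2 difference came to -0.44 with a standard error of 0.20 (edgeR, adjusted p = 0.46), and to -0.24 without WT mouse 1. *Nr1h4* (FXR) had 100.3, 119 and 141 CPM in WT and 101, 93.9 and 87.7 CPM in KO livers, with a log2 fold change of -0.35 (standard error 0.16; edgeR, adjusted p = 0.46), and of -0.21 without WT mouse 3. The unadjusted p was 0.060 for *Hnf4a* and 0.058 for *Nr1h4*.

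The remaining 4 receptors had unadjusted p-values from 0.26 to 0.59. *Nr1h3* (LXR-alpha) had 102, 111 and 99.0 CPM in WT and 98.4, 113 and 118 CPM in KO livers. With a log2 fold change of 0.08 and a standard error of 0.14, a difference between the genotypes was not detectable. *Nr3c1*, the glucocorticoid receptor, had 40.5, 37.3 and 48.6 CPM in WT and 31.4, 39.8 and 39.98 CPM in KO livers (log2 fold change -0.18, standard error 0.16). *Pparg*, whose PPAR-gamma product promotes lipid storage, had 13.3, 8.44 and 8.36 CPM in WT and 7.69, 7.52 and 9.25 CPM in KO livers (log2 fold change -0.30, standard error 0.25). *Esr1* had 8.72, 5.44 and 3.77 CPM in WT and 11.9, 8.79 and 4.24 CPM in KO livers (log2 fold change 0.48, standard error 0.42), from 44 to 130 reads per liver. In each of these 4 the genotypes overlapped.

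**Figure D2:**
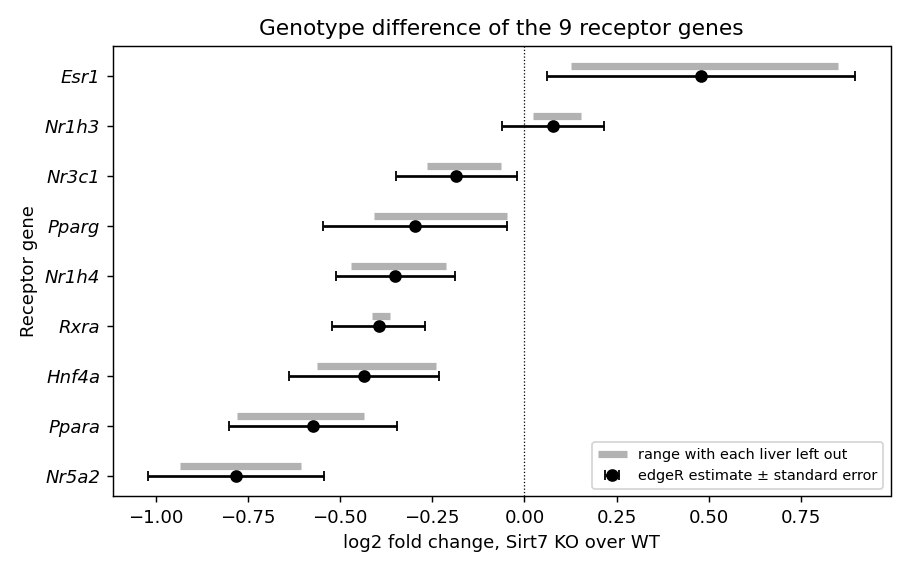
The log2 fold change of *Sirt7* KO over WT livers for the 9 receptors. Points are edgeR estimates and black bars are ± 1 standard error. Grey bars span the estimates with each of the 6 livers left out in turn. The bars of *Rxra* span -0.41 to -0.36 and those of *Ppara* -0.78 to -0.44.

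**Figure D3:**
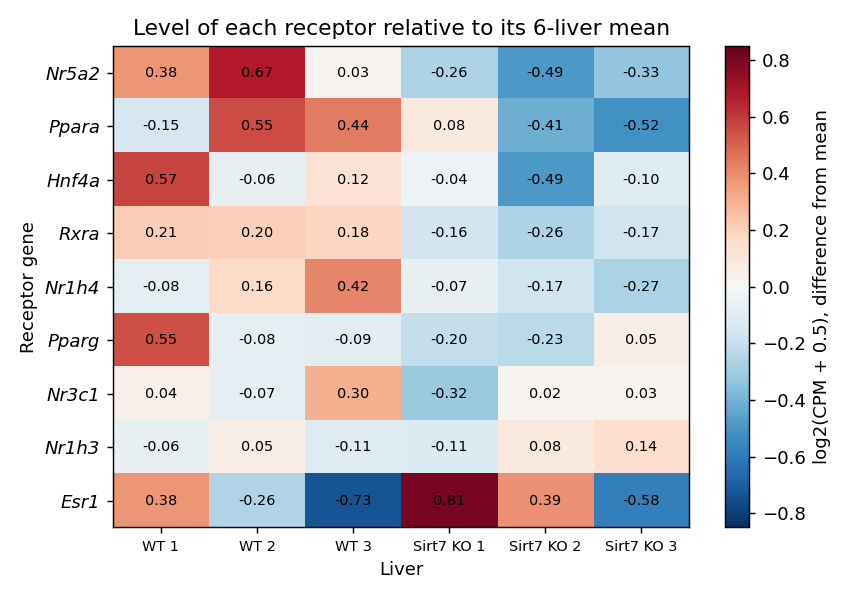
Level of each receptor in each liver, as the difference of its log2(CPM + 0.5) from its mean over the 6 livers. KO mice 2 and 3 hold the lowest *Ppara* values and WT mouse 1 the highest *Hnf4a* value.

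The RXR genes were then compared with each other. *Rxra* had 24.8 ± 1.48 TPM in WT and 17.8 ± 0.768 TPM in KO livers (SD, n = 3 each), *Rxrb* had 8.79 and 9.76 TPM, and *Rxrg* 4.08 and 4.32 TPM. The *Rxra* share of the RXR reads per length was 65.8%, 65.3% and 66.3% in WT livers and 58.7%, 53.9% and 55.3% in KO livers. Every KO share was below every WT share (exact two-sided permutation p = 0.1, the smallest that 3 against 3 mice allow). Among the 9 receptors, the partners of *Rxra* are *Ppara*, *Pparg*, *Nr1h3* and *Nr1h4*. The ratio of *Rxra* to their summed TPM was 0.166, 0.131 and 0.134 in WT livers and 0.122, 0.123 and 0.131 in KO livers. The highest KO value thus came close to the lowest WT value. Receptors outside the 9, such as *Nr1i3* (136 TPM in WT and 75.4 TPM in KO means), were left out of this sum. How the ratio would stand with them was not tested. The partners among the 9 receptors summed to 173 ± 13.2 TPM in WT and 142 ± 0.872 TPM in KO livers (SD, n = 3 each).

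The transcripts to which the authors' software assigned the reads of each receptor were described, counting transcripts with 10% or more of their gene's reads in the mean of either genotype. Of 17 such transcripts, 0 had shares that did not overlap between the genotypes, and such a count was not made over the transcripts of all genes. As a share of TPM, Nr3c1-203 was lower in KO livers without overlap (exact two-sided permutation p = 0.1, the smallest possible). *Hnf4a* reads fell almost wholly on Hnf4a-202, which begins at the P1 start used in adult liver, in WT livers (100%, 99.9% and 100%). In KO livers, 477 reads of mouse 2 and 169 reads of mouse 3 were assigned to Hnf4a-201, which starts 1 base apart and has 1422 coding bases instead of 1395, and 0 in mouse 1. For *Nr1h4*, Nr1h4-203, which begins at the upstream start, took 43.8%, 52.0% and 48.6% in WT and 26.5%, 43.3% and 51.4% in KO livers. For *Nr3c1*, the split between the transcripts Nr3c1-203 and Nr3c1-204 varied between KO livers, with 308, 257 and 492 reads on the first in WT livers and 0, 238 and 65.0 in KO livers. Nr3c1-204 took 0 reads in each WT liver and 264, 0 and 176 reads in KO livers. *Pparg* reads fell on the transcripts with 1425 coding bases, that is PPAR-gamma 1, except for 20.3 reads of KO mouse 3 on Pparg-201, whose 1515 coding bases encode PPAR-gamma 2. For transcripts that share most of their sequence such shares are estimates, and their error was not tested.

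**Figure D4:**
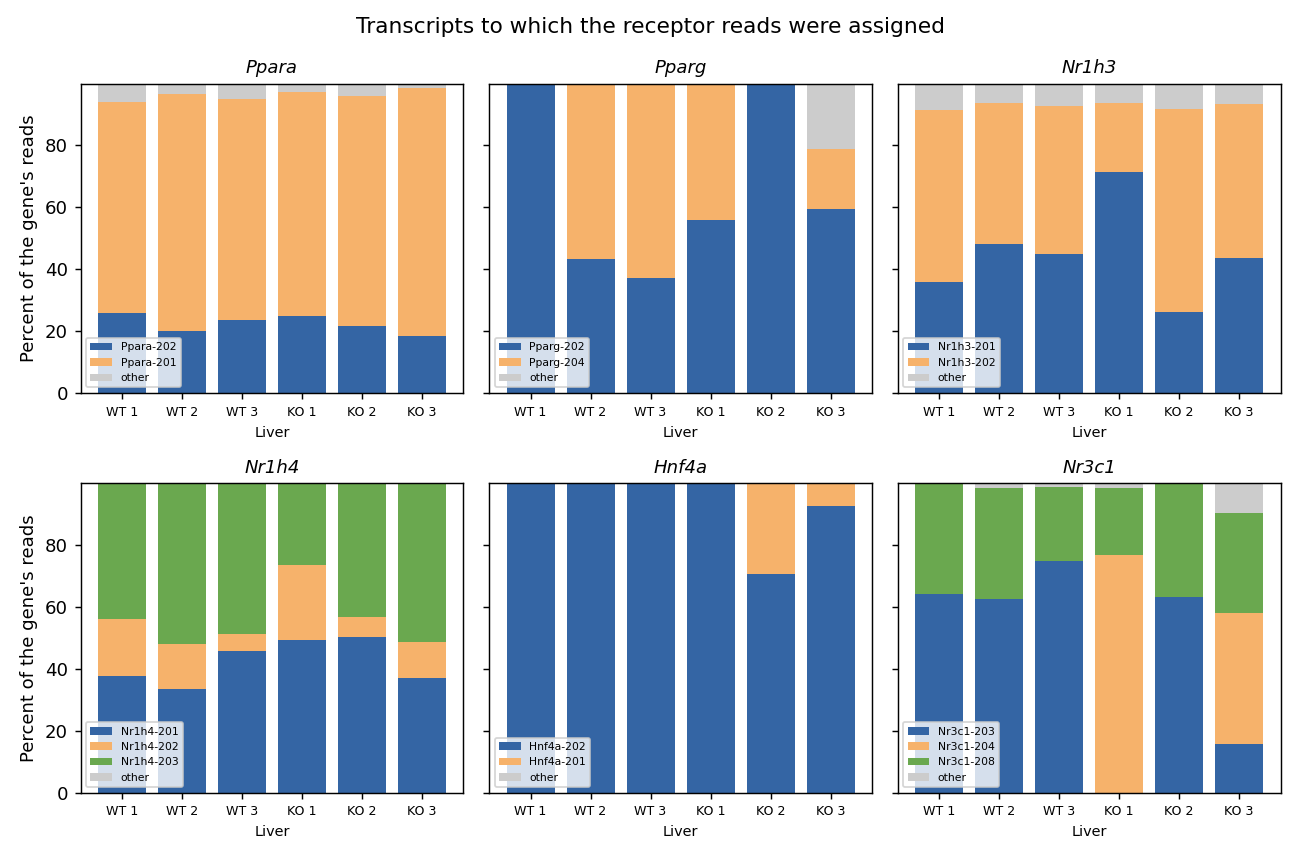
Share of the reads of 6 receptor genes (percent) that was assigned to each transcript in each of the 6 livers. Colours mark the transcripts with at least 10% in the mean of a genotype, and grey the rest. The shares of *Pparg* differ between mice of each genotype. Those of *Nr3c1* differ mostly between KO mice, with 0%, 63.2% and 15.7% on Nr3c1-203 against 64.4%, 62.5% and 74.9% in WT livers.

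The known targets of each receptor were read in the same test. Their lists were also chosen with earlier results of these data known. The counts below describe these lists and are not independent support. The 14 genes driven by PPAR-alpha had a median log2 fold change of -0.63, against -0.0061 for all tested genes, and 12 of the 14 were below 0. At an unadjusted p under 0.05, 6 of the 14 were lower in KO livers and 0 were higher, against 4.78% and 6.54% of all tested genes, and none passed the adjusted threshold. The cytochrome P450 fatty acid hydroxylase gene *Cyp4a14* was at 2751, 3182 and 2049 CPM in WT livers and 884, 268 and 82.8 CPM in KO livers, so that no KO liver reached a WT liver (log2 fold change -2.69, standard error 0.70; edgeR, adjusted p = 0.20). *Cyp4a10*, of the same family, had a log2 fold change of -1.81, *Ehhadh*, a peroxisomal enzyme of fatty acid oxidation, -1.57, and *Vnn1* (vanin 1) -1.28. *Acadm*, an enzyme of mitochondrial beta-oxidation, stood at -0.61. *Pdk4*, an inhibitor of pyruvate dehydrogenase, was at 0.34 (standard error 0.71). The mean of the centred log2 values of the 14 genes was 0.23, 0.82 and 0.40 in the WT livers and 0.49, -0.90 and -1.05 in the KO livers, so KO mouse 1 was among the WT values. With each of the 6 mice left out in turn, *Cyp4a14*, *Cyp4a10* and *Acadm* had an unadjusted p under 0.05 in 6 of 6 fits, *Ehhadh* in 3, and *Vnn1* in 2. *Ehhadh* was at -0.78 without WT mouse 2, and *Vnn1* at -2.35 without KO mouse 1. With no filter on low counts, the setting that called 633 genes in place of 1, the adjusted p-values from edgeR were 8.95e-31 for *Cyp4a14*, 3.48e-14 for *Cyp4a10*, 7.34e-12 for *Ehhadh* and 8.22e-09 for *Vnn1*. In that setting *Ppara*, *Nr1h3*, *Nr1h4* and *Rxra* all had a standard error of 0.19, against 0.23, 0.14, 0.16 and 0.13 in the main fit. *Hnf4a* and *Nr3c1* also had 0.19 there, against 0.20 and 0.16. *Esr1*, *Nr5a2* and *Pparg*, which had fewer reads, had 0.30, 0.28 and 0.27, against 0.42, 0.24 and 0.25. The standard errors of that setting thus did not follow those of the main fit, and the cause was not tested.

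The PPAR-gamma target *Plin4*, a lipid droplet protein, had a log2 fold change of -1.64 (standard error 0.41; edgeR, adjusted p = 0.19), with 39.5, 18.7 and 29.7 CPM in WT and 15.6, 7.63 and 4.91 CPM in KO livers. It was the only 1 of 6 tested genes of this list at an unadjusted p under 0.05, against 11.3% of all tested genes. *Cidea*, another lipid droplet protein, was at 0.54 (standard error 0.93). Of 10 LXR targets, 1 was at an unadjusted p under 0.05, against 11.3% of all tested genes. This target was *Srebf1*, the gene of the lipogenic factor SREBP-1, with 35.4, 57.0 and 92.9 CPM in WT and 67.8, 134 and 183 CPM in KO livers (log2 fold change 1.05, standard error 0.40). *Mylip*, which marks the LDL receptor for degradation, was lowest in this list at -0.20 (standard error 0.52). *Plin4* had an unadjusted p under 0.05 in 6 of 6 fits with a mouse left out and *Srebf1* in 2. The adipocyte markers summed to 0.272 to 1.27 CPM in WT and 0.578 to 3.75 CPM in KO livers, and their part in the *Plin4* and *Cidea* values was not tested.

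Of 5 tested FXR targets, 3 were at an unadjusted p under 0.05, in both directions, against 11.3% of all tested genes. *Nr0b2*, the gene of the corepressor SHP, had 71.0, 41.6 and 55.6 CPM in WT and 89.5, 109 and 77.6 CPM in KO livers (log2 fold change 0.72, standard error 0.22), and *Abcb11*, the bile salt export pump, had 0.77 (standard error 0.27). *Abcb4*, the phosphatidylcholine transporter of the bile canaliculus, had -0.70 (standard error 0.20). Their adjusted p-values from edgeR were 0.25, 0.34 and 0.23. With a mouse left out, *Nr0b2* and *Abcb4* had an unadjusted p under 0.05 in 6 of 6 fits and *Abcb11* in 3.

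Of 10 HNF4-alpha targets 0 were at an unadjusted p under 0.05, against 11.3% of all tested genes. The log2 fold changes of these targets lay between -0.51 for *Apoa4* (an apolipoprotein) and 0.51 for *Cyp8b1* (sterol 12-alpha-hydroxylase). Of 11 targets of the glucocorticoid receptor, 2 were lower in KO livers at an unadjusted p under 0.05, against 4.78% of all tested genes. *Fkbp5*, a cochaperone of the receptor, had 42.6, 42.9 and 74.4 CPM in WT and 20.2, 27.9 and 30.6 CPM in KO livers (log2 fold change -1.02, standard error 0.25; edgeR, adjusted p = 0.19), and the clock gene *Per1* had -0.90 (standard error 0.35). *Per1* was at -0.57 without KO mouse 1, and at -0.37 in DESeq2 with average transcript length offsets. The metallothionein gene *Mt2* was highest in this list, at 0.64 (standard error 0.76). *Igf1*, the tested gene of the estrogen receptor list, was at -0.022 (standard error 0.13). Of 6 LRH-1 targets, *Plk3*, a polo-like kinase gene, was at -1.15 (standard error 0.44) and *Nr0b2* at 0.72. The LRH-1 list shares *Nr0b2* with the FXR list and *Cyp8b1* with the HNF4-alpha list, so the counts of these lists are not independent. *Plk3* and *Nr0b2* both had an unadjusted p under 0.05, against 11.3% of all tested genes. Of the genes of these lists, *Fkbp5* had such a p in 6 of 6 fits with a mouse left out, *Plk3* in 4 and *Per1* in 3. With no filter on low counts, *Plin4*, *Srebf1*, *Nr0b2*, *Abcb11*, *Abcb4*, *Fkbp5*, *Per1* and *Plk3* also passed the adjusted threshold in edgeR, with adjusted p-values from 8.15e-11 for *Plin4* to 0.0188 for *Abcb4*. Genes above an unadjusted p of 0.05 in the main fit passed there too. Among them were *Cidec* (adjusted p = 5.27e-05 from edgeR) and the Kupffer cell marker *Marco* (9.07e-15), both named after their values were seen. *Marco* had 1.19, 3.27 and 42.8 CPM in WT and 3.11, 4.34 and 1.16 CPM in KO livers, so it was high in WT mouse 3 alone.

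**Figure D5:**
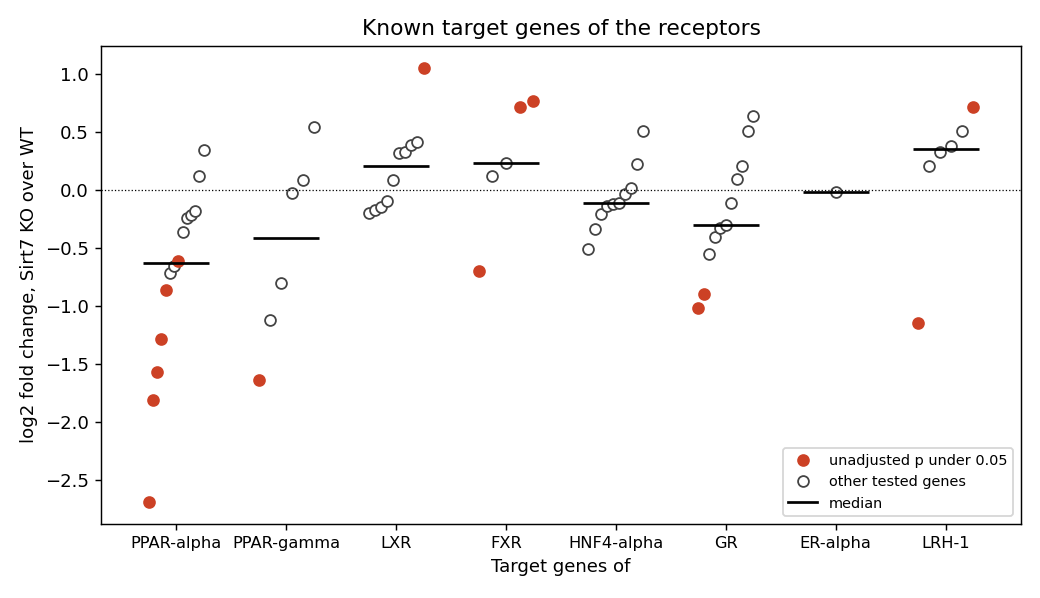
The log2 fold change of *Sirt7* KO over WT livers for known target genes of each receptor. Red points are genes at an unadjusted p under 0.05, open points are other tested genes and black lines are medians. The PPAR-alpha targets have 6 red points, all below 0, whereas the FXR targets have red points on both sides of 0.

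By the root mean square distance of their centred log2 values over the 6 livers, among 8913 genes with a mean of at least 50 counts, *Gk* (glycerol kinase, 0.0974) and *Decr1* (a fatty acid oxidation enzyme, 0.104) were nearest to *Ppara*. *Raver1* (0.0371) and *Uhrf1bp1l* (0.0384) were nearest to *Rxra*, and *Sgms1* (0.0602) and *Plekhb1* (0.0955) to *Nr5a2*. Nearest to *Hnf4a* were *Camk2n1* (0.0717) and *Klhl3* (0.0726), and to *Nr1h4* 4632427E13Rik (0.0584) and *Dmac1* (0.0686). For *Nr1h3* they were *Ddx47* (0.0265) and *Auh* (0.0284), for *Nr3c1* *Seh1l* (0.0470) and *Cab39l* (0.0484), for *Pparg* *Orai1* (0.0323) and *Sgk1* (0.0343), and for *Esr1* *Nfil3* (0.165) and Gm42566 (0.171). With 6 livers and 8913 genes such likeness is a description only.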

How the data were processed

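RNA-seq libraries of 6 livers were grouped as 3 WT and 3 *Sirt7* KO by their labels. Per the submitters' processing notes, reads were trimmed with Trim Galore 0.6.5 and quantified with Salmon 1.2.1; the annotation release is not given in the sources used here. The authors deposited, for each transcript, the estimated count of reads (not normalized) and the TPM, scaled to effective length and library. The libraries came from an amplifying SMART-seq kit that does not keep strand.

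Estimated counts of a gene's transcripts (GENCODE M21, GRCm38) were summed and rounded. Of 140992 transcripts, 1201 (0.303% to 0.492% of reads) matched no gene and stayed out. Genes were tested with edgeR 4.0.16 in R 4.3.3 (TMM, filterByExpr with a minimum count of 10, quasi-likelihood test, Benjamini-Hochberg adjustment), with no covariate, after a check on simulated data. The authors' tool was DESeq2 (here 1.42.0, an alternative). Levels between genes used the deposited TPM of protein-coding transcripts; *Ppara* in all transcripts, 108.8 and 55.4 TPM in WT and KO means, includes very short noncoding ones (protein-coding 54.99 and 36.7 TPM). This choice was made after seeing the data. Differences in shares and ratios were tested by exact permutation over mice with scipy 1.17.1.

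The receptors, the target, marker and coregulator lists, and the tests were chosen with earlier results of these data known. Named genes are the receptors, *Sirt7*, the called gene, list genes at an unadjusted p under 0.05, the lowest and highest gene of each list of receptors, coregulators and targets, and the 2 genes nearest to each receptor. The values of 1 list gene under this rule are not reported here. No molecular identifiers are described, so the depth of 9994860 to 13424776 reads covers counting error only. Mice of 1 genotype differed by more than sampling noise. Promoter sequences were taken from RefSeq (GRCm38.p6). Protein sequences were not used here. Alternatives were other normalizations, filters, length offsets, DESeq2, a replicate block and leaving out each mouse.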

Additional observations from a re-analysis of the deposited data

How the results depend on the processing

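The number of genes called was 1, and it was 2 with total counts only, 633 with no filter on low counts, 2 with average transcript length offsets in edgeR, 257 with DESeq2, 240 with DESeq2 and length offsets, 41 with the replicate block, and 0 to 252 with 1 mouse left out, 252 being without KO mouse 1. The number of receptors at an unadjusted p under 0.05 was 3, 5 with total counts only and 2 to 5 with 1 mouse left out. *Rxra* and *Nr5a2* kept an unadjusted p under 0.05 in all 9 other settings (log2 fold change -0.50 to -0.39 and -0.89 to -0.76) and without each of the 6 mice. Total counts moved the median of all genes by -0.11, and there *Nr1h3* reversed, to -0.031, while *Nr1h4* (-0.45) and *Hnf4a* (-0.56) came under 0.05. *Hnf4a* also did so with no filter (-0.43), DESeq2 (-0.43) and the replicate block (-0.42), whereas *Ppara* did not stay under it with the block (-0.57, unadjusted p = 0.062 from edgeR). The number of receptor transcripts whose shares did not overlap was 0, 1 as a share of TPM (Nr3c1-203), and 0 to 3 with 1 mouse left out. The labels do not state that replicate numbers pair the mice. Same-numbered WT and KO mice correlated at 0.0652, 0.08 and -0.0437 in their deviations from the genotype means over genes. Mice with unlike numbers correlated at -0.103 to 0.0487. With 3 mice per genotype these correlations constrain each other, so they cannot decide whether the mice were paired. The depth of 44 to 157 reads per liver limits *Esr1*, *Nr5a2* and *Pparg*. The cause of each change was not tested.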

Other observations

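Of the 40 other nuclear receptor genes, 26 were tested, and 3 were lower and 1 higher in KO livers at an unadjusted p under 0.05, against 4.78% and 6.54% of all tested genes. None passed the adjusted threshold, but with no filter on low counts the adjusted p from edgeR was 0.000213 for *Nr1i3*, 0.00956 for *Nr0b2* and 0.0105 for *Esrra*, an estrogen-related receptor gene whose log2 fold change was -0.88 (standard error 0.54), named here after its values were seen. In the main fit the unadjusted p of *Esrra* from edgeR was 0.14. Its genotypes overlapped, with 18.1, 19.6 and 23.6 CPM in WT and 2.29, 12.9 and 18.2 CPM in KO livers. With a mouse left out, its log2 fold change ranged from -1.44 to -0.39, with an unadjusted p under 0.05 in 1 of 6 fits. *Nr1i3*, the gene of the constitutive androstane receptor, had 452, 630 and 713 CPM in WT and 310, 288 and 326 CPM in KO livers, with every KO liver below every WT liver (log2 fold change -0.96, standard error 0.19, adjusted p = 0.14 from edgeR). The pregnane X receptor gene *Nr1i2*, another sensor of foreign compounds, had a log2 fold change of -0.44 (standard error 0.19). Its unadjusted p was under 0.05 in 6 of 9 other settings and in 2 of 6 fits with a mouse left out, and the value was -0.29 without KO mouse 1. *Esrrg*, a related receptor gene at 0.848 to 2.96 CPM, had -1.35 (standard error 0.41), but -0.068 in DESeq2 with average transcript length offsets, and its unadjusted p was under 0.05 in 6 of 8 other settings. The gene that was higher was *Nr0b2*.

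Among 16 coactivators and corepressors of nuclear receptors, 14 had a log2 fold change below 0 (median -0.19), against 50.7% of all tested genes. At an unadjusted p under 0.05 stood 1 of the 16, the corepressor gene *Ncor1*, against 11.3% of all tested genes. *Ncor1* had 68.6, 61.2 and 65.4 CPM in WT and 62.9, 38.5 and 38.9 CPM in KO livers, so that KO mouse 1 lay among the WT values (log2 fold change -0.48, standard error 0.20), and its unadjusted p was under 0.05 in 1 of 6 fits with a mouse left out. Without KO mouse 1 the log2 fold change was -0.75 (adjusted p = 0.039 from edgeR). The lowest of the list was the coactivator gene *Ppargc1b* at -0.60 (standard error 0.30) and the highest the histone deacetylase gene *Hdac3* at 0.28 (standard error 0.16).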
